A study of Mus musculus with 12 samples.

Results

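A set of 37 genes of the actin and myosin cytoskeleton was followed in primary mouse hippocampal cultures in which the long noncoding RNA *Neuid* had been knocked down. The set was given as a list of gene symbols for actins, transgelins, calponins, tropomyosins, nonmuscle myosin II, filamins, focal adhesion proteins, ERM proteins, actin turnover factors and the transcription factor SRF. It was chosen with results of the same comparison known, so the counts of its members below describe these genes and test nothing about them as a group. The 37 symbols matched 38 Ensembl genes of the 55471 in the table, since Myl12b has a pair of identifiers, and 36 of the 38 were among the 19578 genes with enough reads to be tested.

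Cultures came from CD1 mouse embryos at E17, from litters of mixed sex, and were wild type, with the meninges taken off before dissociation. At DIV 7 (day in vitro) the control group received a control gapmer, and the *Neuid* KD group received a gapmer against *Neuid*. A gapmer is an antisense oligonucleotide that directs RNase H to cut the matching RNA. Both groups therefore carried an oligonucleotide, and RNA was isolated at DIV 10, 72 h later, for 6 RNA-seq libraries per group. The sources used here do not say whether the 6 libraries of a group came from separate cultures, so p-values measure the spread between libraries, which may be technical.

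Actin filaments are built from monomers whose supply and turnover are set by proteins such as profilin and cofilin. Tropomyosins, calponins, transgelins and caldesmon lie along the filament, filamins and alpha-actinins cross-link it, and nonmuscle myosin II pulls on it. Vinculin, talins and zyxin tie filaments to integrins at focal adhesions, ERM proteins tie them to the plasma membrane, and SRF, with its actin-sensing MRTF cofactors, drives transcription of many of these genes. In neurons the same machinery shapes growth cones and dendritic spines, while in smooth muscle, pericytes and reactive glia it makes contractile bundles.

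*Neuid* (Gm10419, chr5:108367769-108378239, plus strand) itself was at 26.0 to 31.0 CPM in control libraries and at 6.32 to 9.55 CPM in *Neuid* KD libraries, where CPM is counts per 1000000 counted reads after TMM scaling. Its log2 fold change was -1.81 (standard error 0.0845, edgeR adjusted p = 1.3e-10). Libraries held 11152556 to 30914714 counted reads. They differed in background reads, measured as the CPM on 1780 chemosensory receptor genes, which cultured hippocampal cells are not known to use. This background ran from 26.0 to 653 CPM in control and from 26.9 to 604 CPM in *Neuid* KD libraries. It reached 100 CPM or more in 7 libraries (4 control and 3 *Neuid* KD) and stayed below in the other 5 (2 control and 3 *Neuid* KD).

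Most of the cytoskeletal set had levels close to those of the control group. Of the 36 tested members, 3 fell (Tagln2, Flnc and Cald1), 3 rose (Ezr, Tln1 and Cnn3) and 30 were not called, by edgeR's quasi-likelihood test with Benjamini-Hochberg adjustment over all 19578 genes (threshold 0.05). Over all tested genes, 8.72% were called, 2.42% as lower and 6.31% as higher, so the 6 called members (16.7%) stood against a background of 8.72%. This background covers genes of all levels, while 25 of the 36 members had a control mean of at least 20 CPM. A share among genes of like level was not computed, here or for the pathway lists below. The groups did not overlap for 3 members (Tagln2, Ezr and Tln1), and over all tested genes for 5.7%. The median log2 fold change of the tested members was 0.01, against -0.03 for all tested genes. With a log2 fold change beyond 0.5 asked for as well, Tagln2 and Flnc remained, against a background of 0.792% lower genes, and no member was higher, against 2.44%. For 23 of the 30 members not called, the 95% interval of the log2 fold change stayed within 0.5 of 0. The other 7 were all under 5 CPM in control libraries (Acta2, Actg1, Tagln, Cnn2, Tpm2, Myl9 and Myl12a), and their intervals include a change of that size. Without adjustment for the number of genes, the interval left out 0 for 7 of the 30 (Cnn2, Tpm4, Myh14, Flna, Tln2, Rdx and Pfn1).

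**Figure D1:**
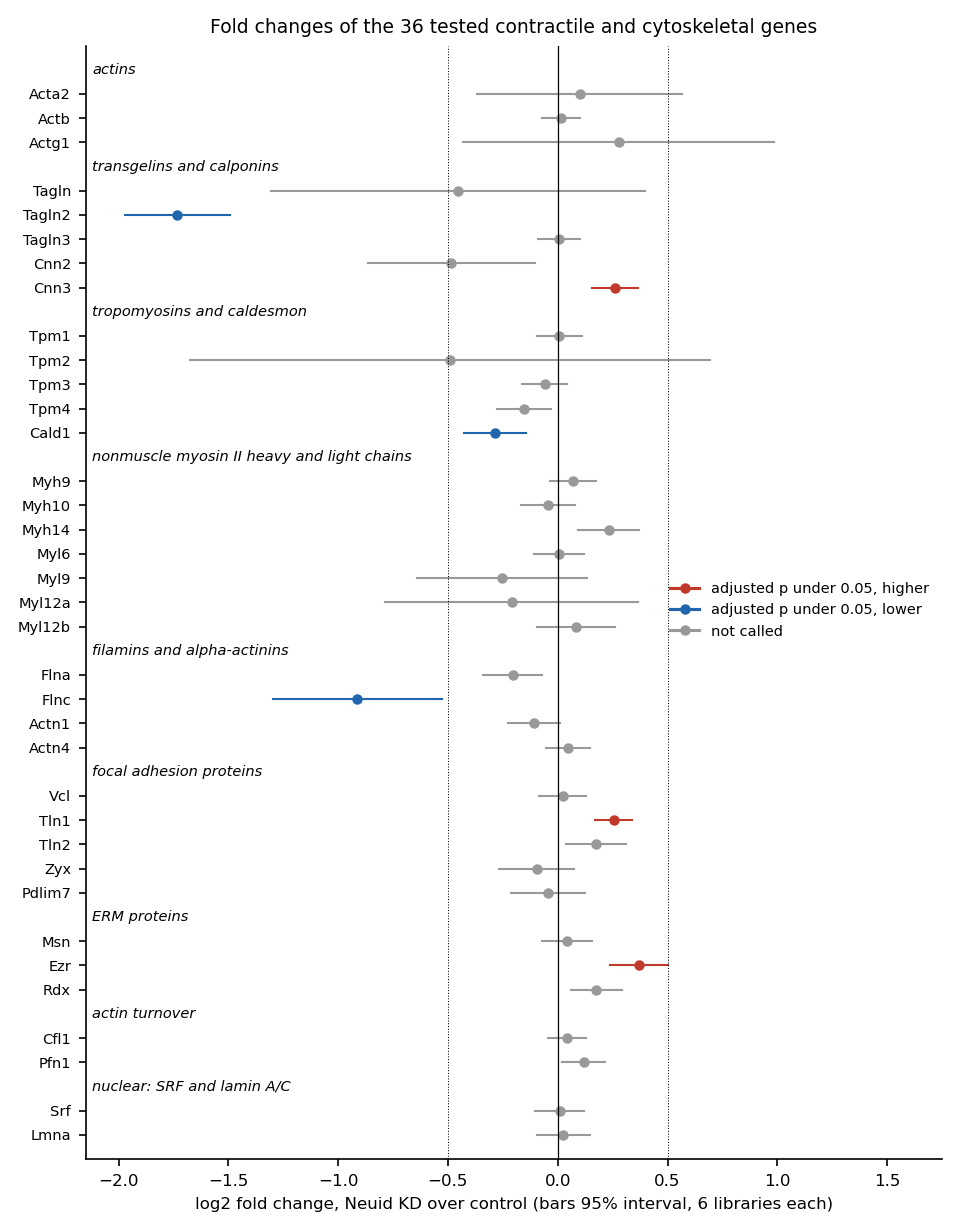
Log2 fold change of each tested member (*Neuid* KD over control, horizontal axis), grouped by role, with bars for the 95% interval and dotted lines at 0.5 in either direction. Tagln2 (-1.73) and Flnc (-0.91) lie left of the lower line, while Ezr, Tln1 and Cnn3 are higher by less than 0.5.

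Srf, the transcription factor of the set, was at 28.9, 33.1 and 34.9 CPM in control libraries (lowest, median and highest) and at 29.6, 32.5 and 35.4 CPM in *Neuid* KD libraries. The groups overlapped over nearly their whole range, and the log2 fold change was 0.01 (standard error 0.0571, edgeR adjusted p = 0.96). Its MRTF cofactors, named here for their role, were not called. Mrtfa had a log2 change of 0.05 (edgeR adjusted p = 0.81) and Mrtfb one of -0.12 (edgeR adjusted p = 0.30). Lmna, which encodes the nuclear lamins A and C, was at 48.9 to 59.4 CPM in control and 47.8 to 59.8 CPM in *Neuid* KD libraries (log2 fold change 0.03, edgeR adjusted p = 0.90).

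SRF binds the CArG box, and the 250 bases before the annotated start of each member were searched for its consensus, which reads the same on both strands. RefSeq promoters on GRCm38.p6 were found for 34 of the 37 symbols and not for Actb, Tagln and Tln2. The RefSeq start can differ from the start of the gene that was counted. The Tagln2 window runs into the counted gene, and those of Flna and Lmna, among others, lie inside theirs. For such genes the bases before the counted start were searched in part or not at all. The motif stood before 6 of the 34 members (17.6%) and before 1.62% of the 27025 genes in the same table. The set had been chosen partly as SRF-related genes, and a match describes the letters of this window without showing that a factor binds there. The 6 with a match were Srf, Actg1, Cnn2, Myl6, Myl9 and Vcl. The sequences below show the promoters of the members with the largest decreases, without a match, the Srf promoter, which holds 2 matches, and 50-base windows around the match of the other 5. They are written 5′ to 3′ on the strand of the gene, and the capitals mark the CArG box.
Tagln2, chr1:172499996-172500245, plus strand: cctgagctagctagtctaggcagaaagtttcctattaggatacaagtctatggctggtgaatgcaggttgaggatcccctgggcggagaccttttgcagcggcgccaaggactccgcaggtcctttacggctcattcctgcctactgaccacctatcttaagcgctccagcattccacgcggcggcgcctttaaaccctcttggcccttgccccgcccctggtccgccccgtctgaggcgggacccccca
Flnc, chr6:29433006-29433255, plus strand: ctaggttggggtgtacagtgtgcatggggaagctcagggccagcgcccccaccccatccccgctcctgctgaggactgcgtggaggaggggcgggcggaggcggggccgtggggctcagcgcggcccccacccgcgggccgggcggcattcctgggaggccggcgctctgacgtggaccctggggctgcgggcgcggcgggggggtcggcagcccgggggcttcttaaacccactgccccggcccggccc
Srf, chr17:46556163-46556412, minus strand: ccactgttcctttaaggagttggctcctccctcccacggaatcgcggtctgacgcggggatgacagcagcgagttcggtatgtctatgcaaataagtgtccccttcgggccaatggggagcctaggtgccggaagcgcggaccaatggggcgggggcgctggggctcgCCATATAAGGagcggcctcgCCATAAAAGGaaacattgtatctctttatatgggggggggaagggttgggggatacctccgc
Actg1, chr11:120348556-120348605, minus strand: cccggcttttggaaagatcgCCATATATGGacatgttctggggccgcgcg
Cnn2, chr10:79988524-79988573, plus strand: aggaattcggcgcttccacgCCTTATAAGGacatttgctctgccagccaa
Myl6, chr10:128493030-128493079, minus strand: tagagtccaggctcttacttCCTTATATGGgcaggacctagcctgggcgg
Myl9, chr2:156775283-156775332, plus strand: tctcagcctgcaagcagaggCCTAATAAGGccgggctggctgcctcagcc
Vcl, chr14:20929151-20929200, plus strand: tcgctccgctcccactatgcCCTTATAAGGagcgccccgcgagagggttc
Flnc had a second annotated start, whose promoter held no match either. Myl6 had 2 annotated starts. Its promoter at chr10:128493010-128493259 held the match, and that at chr10:128493887-128494136 held none. The 2 boxes of Srf begin 82 and 62 bases before its start, and the other matches begin 90 (Actg1), 56 (Cnn2), 50 (Myl6), 161 (Myl9) and 227 (Vcl) bases before theirs. Of the 6 genes with a match, none was called, and their log2 fold changes ran from -0.48 for Cnn2 to 0.28 for Actg1. As 16.7% of all tested members and 8.72% of all tested genes were called, no call among 6 genes says little. Actg1, Cnn2 and Myl9 were also under 5 CPM in control libraries, with intervals reaching past 0.5.

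Actb, a cytoplasmic actin, was at 1681, 1816 and 1908 CPM in control libraries (lowest, median and highest) and at 1741, 1850.3 and 1869.6 CPM in *Neuid* KD libraries. All 6 *Neuid* KD libraries lay inside the control range, and the log2 fold change was 0.02 (standard error 0.0442, edgeR adjusted p = 0.91). Acta2, the actin of smooth muscle and activated mural cells, was at 1.45, 2.05 and 2.64 CPM in control and at 1.44, 2.24 and 3.20 CPM in *Neuid* KD libraries, on 34 to 62 reads. Its log2 fold change was 0.10 (standard error 0.238, edgeR adjusted p = 0.89), and the groups overlapped. Actg1, the second cytoplasmic actin, was listed at 0.588, 1.05 and 1.57 CPM in control and at 0.421, 1.42 and 1.76 CPM in *Neuid* KD libraries, on 5 to 47 reads (log2 fold change 0.28, edgeR adjusted p = 0.80). In its longest transcript, 56.7% of the 50-base windows occur word for word in transcripts of 22 other genes, so reads from these windows may have been placed elsewhere or dropped. The remaining windows are its own, and the cause of the low count was not tested. For Actb the share of such windows was 14.2%.

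The largest decrease of the set was that of Tagln2, the transgelin of nonmuscle cells, which binds and bundles actin filaments. Tagln2 (chr1:172500047-172507380) was at 8.37, 9.58 and 11.7 CPM in control libraries (lowest, median and highest) and at 2.25, 2.98 and 3.79 CPM in *Neuid* KD libraries. The highest *Neuid* KD library lay below the lowest control library by more than the spread within either group. Its log2 fold change was -1.73 (standard error 0.123, edgeR adjusted p = 2.6e-08), a mean change of -69.8%. The other transgelins were not called. Tagln3, the neuronal transgelin, was at 85.7 to 100.04 CPM in control and at 87.0 to 96.6 CPM in *Neuid* KD libraries (log2 fold change 0.01, edgeR adjusted p = 0.98). Tagln, the smooth muscle transgelin also called SM22, was at 0.509 to 0.981 CPM against 0.234 to 0.842 CPM, on 5 to 21 reads (log2 fold change -0.46, edgeR adjusted p = 0.70). Of the summed transgelin level per kilobase of exon, Tagln2 made up 6.12% ± 0.560 in control and 1.93% ± 0.366 in *Neuid* KD libraries (SD, n = 6 each), and Tagln3 93.4% ± 0.650 and 97.7% ± 0.340.

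Among the calponins, which bind actin and dampen myosin activity, Cnn3 rose. Cnn3, the form found in brain, was at 56.4, 59.0 and 63.9 CPM in control and at 63.2, 72.2 and 76.4 CPM in *Neuid* KD libraries. The groups overlapped by 1 library on each side, and the log2 fold change was 0.26 (standard error 0.0537, edgeR adjusted p = 0.0038). Of its 50-base windows, 14.8% are shared with 2 other genes. Cnn3 was not called under the offsets for GC content and length (0.34, adjusted p = 0.94), without a filter on low counts (0.27, adjusted p = 0.12) or within the 7 libraries of higher background (0.20, adjusted p = 0.43). Cnn2, a broadly expressed calponin, was at 3.04, 3.61 and 5.47 CPM in control and at 1.86, 2.94 and 3.70 CPM in *Neuid* KD libraries (log2 fold change -0.48, standard error 0.194, edgeR adjusted p = 0.16). The groups overlapped, and Cnn2 was called lower by the DESeq2 Wald test (-0.51, adjusted p = 0.044). Cnn1, the smooth muscle calponin, had too few reads to be tested. It was at 0.181 to 1.91 CPM in control libraries (4 to 37 reads) and at 0.123 to 0.758 CPM in *Neuid* KD libraries (3 to 13 reads). Its median was 0.758 CPM in the 7 libraries of higher background and 0.185 CPM in the other 5.

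**Figure D2:**
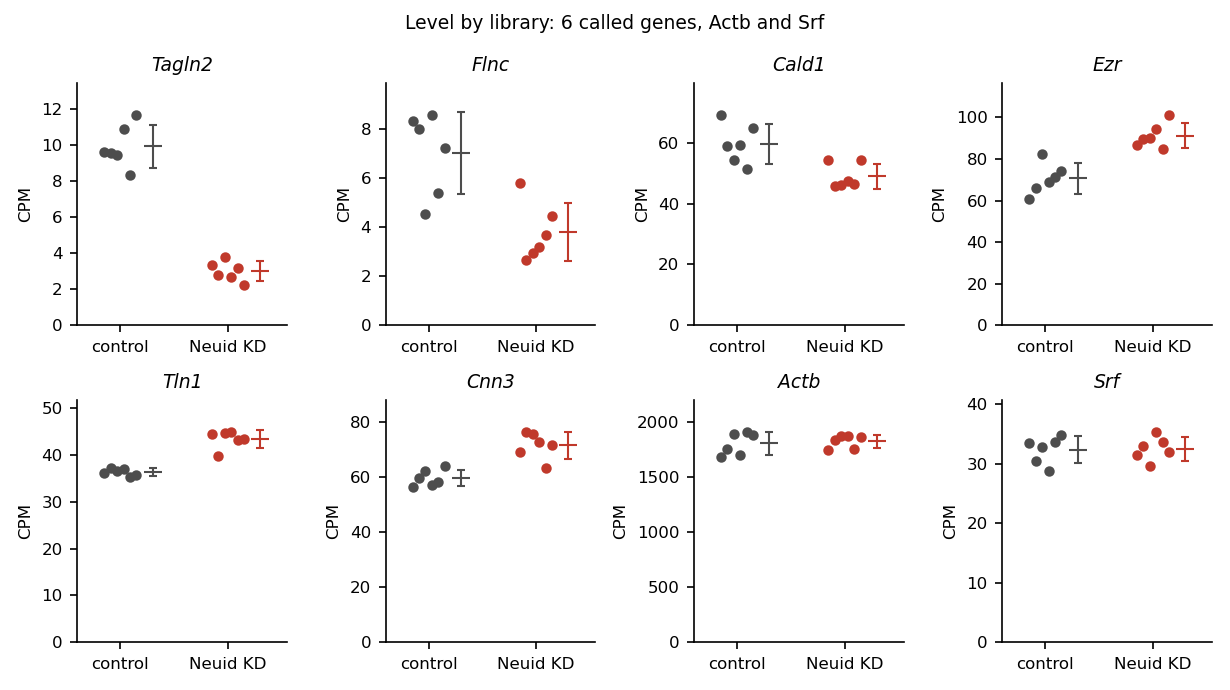
CPM of the 6 called members and of Actb and Srf in each library (points, 6 control and 6 *Neuid* KD) with the mean and SD of each group; every vertical axis starts at 0. The groups are apart for Tagln2, Ezr and Tln1 and overlap for Flnc, Cald1, Cnn3, Actb and Srf.

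Of the tropomyosins, the coiled-coil proteins along the filament that set which partners may bind it, none was called. Tpm1 led them at 138 to 157 CPM in control and 138 to 159.8 CPM in *Neuid* KD libraries (log2 fold change 0.01, edgeR adjusted p = 0.97). Tpm3 had a log2 change of -0.06 (edgeR adjusted p = 0.67). Tpm4, at 28.1, 30.7 and 35.6 CPM in control and 26.0, 27.6 and 31.3 CPM in *Neuid* KD libraries, had one of -0.15 (edgeR adjusted p = 0.17) and was called lower under 5 alternatives, among them without *Neuid* KD replicate 6 (-0.22, adjusted p = 0.042). Tpm2, the smooth muscle form, was at 0.278 to 1.81 and 0.187 to 2.36 CPM on 4 to 35 reads (log2 fold change -0.49, standard error 0.603, edgeR adjusted p = 0.79). Its median was 1.32 CPM in the libraries of higher background and 0.280 CPM in the others. Per kilobase, Tpm1 made up 51.2% ± 1.42 of the tropomyosins in control and 53.5% ± 2.03 in *Neuid* KD libraries, and Tpm4 31.6% ± 2.08 and 29.7% ± 1.60 (SD, n = 6 each).

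Cald1, which encodes caldesmon, an actin- and tropomyosin-binding inhibitor of myosin, fell slightly. It was at 51.5, 59.1 and 69.3 CPM in control and at 45.9, 46.8 and 54.4 CPM in *Neuid* KD libraries. The groups overlapped, and the log2 fold change was -0.29 (standard error 0.0730, edgeR adjusted p = 0.018). Within the libraries of higher background the control libraries were at 58.9 to 69.3 CPM and the *Neuid* KD libraries at 46.3 to 54.4 CPM. Within the others they were at 51.5 to 54.2 and 45.9 to 47.3 CPM. The groups did not overlap on either side, but the second side holds only 2 control and 3 *Neuid* KD libraries. Actb, Zyx and Actn1, which were not called, were apart on that side as well, and the share over all genes was not counted. Cald1 was not called within the 7 libraries of higher background (-0.28, adjusted p = 0.13), without a filter on low counts (-0.27, adjusted p = 0.055) or under offsets for GC content and length (-0.29, adjusted p = 0.29). Npn2 and 2 predicted genes lie on the opposite strand, and the sources used here do not state the strand setting of the counting.

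**Figure D3:**
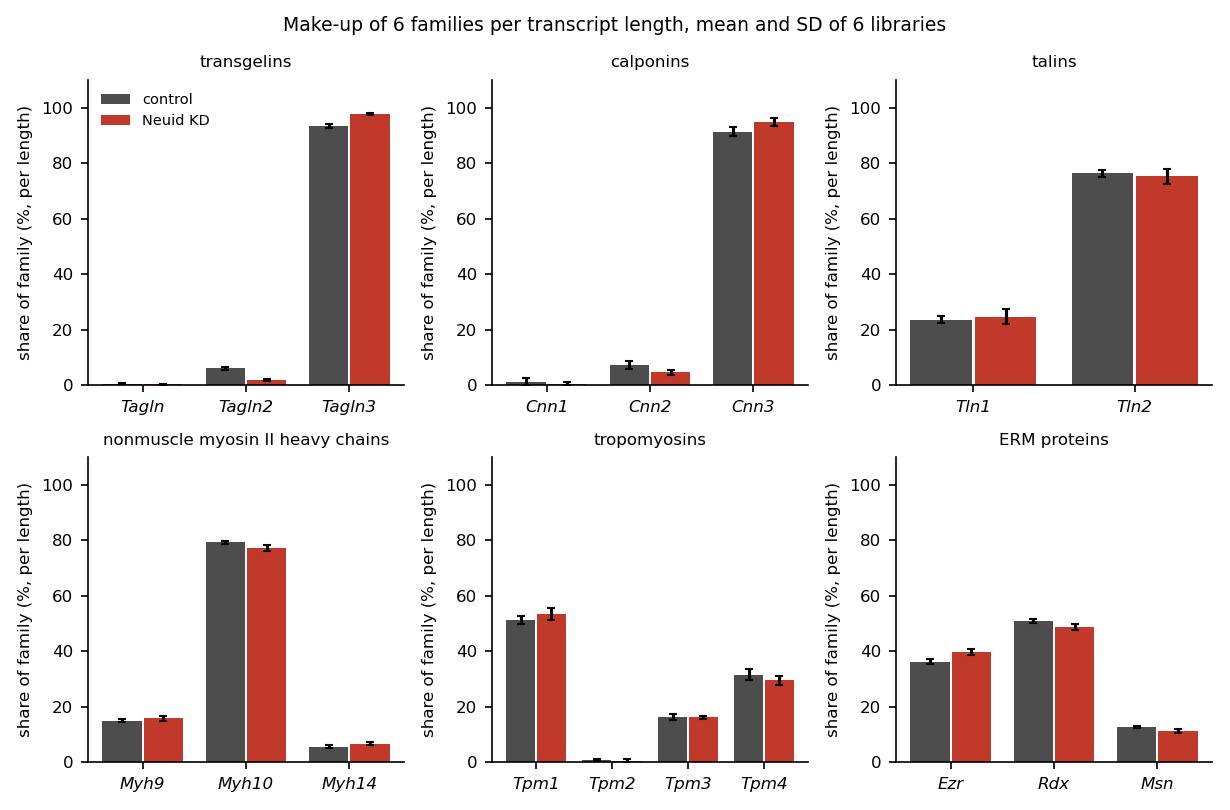
Share of each family's summed level per kilobase of exon (vertical axis, %) held by each gene in control and *Neuid* KD libraries, as the mean and SD of 6 libraries. Within the transgelins Tagln2 makes up 6.12% in control and 1.93% in *Neuid* KD libraries, while Tagln3, Cnn3, Tln2, Myh10, Tpm1 and Rdx hold the largest share of their family in both groups.

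No gene of nonmuscle myosin II, the motor that pulls actin filaments past each other, was called. Myh10, the heavy chain of myosin IIB, was at 522, 577 and 611 CPM in control and at 459, 579 and 592 CPM in *Neuid* KD libraries (log2 fold change -0.04, standard error 0.0629, edgeR adjusted p = 0.82). Myh9, the heavy chain of myosin IIA, was at 124 to 143 and 126 to 152 CPM (log2 fold change 0.07, edgeR adjusted p = 0.60). Per kilobase, Myh10 made up 79.3% ± 0.513 of the 3 heavy chains in control and 77.4% ± 1.14 in *Neuid* KD libraries (SD, n = 6 each). Myh14, the heavy chain of myosin IIC, was at 25.8, 27.6 and 33.1 CPM in control and at 30.1, 33.9 and 38.4 CPM in *Neuid* KD libraries. Its log2 fold change was 0.23 (standard error 0.0710, edgeR adjusted p = 0.052), and the groups overlapped. It was called higher under 7 alternatives (0.21 to 0.29, adjusted p = 0.0099 to 0.046), of which 1 left out a library, control replicate 3.

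The light chains, which bind the neck of the heavy chains, were not called either. Phosphorylation of the regulatory light chains switches the motor on. Myl6, the essential light chain, was at 35.6 to 44.7 CPM in control and 37.0 to 44.0 CPM in *Neuid* KD libraries (log2 fold change 0.01, edgeR adjusted p = 0.98). The regulatory light chains Myl9 (log2 fold change -0.25, edgeR adjusted p = 0.60) and Myl12a (-0.21, edgeR adjusted p = 0.81) were at 1.41 to 3.24 and 1.22 to 3.45 CPM over all libraries. Myl12b was at 7.84 to 10.1 CPM in control and 8.12 to 11.7 CPM in *Neuid* KD libraries under its first identifier (log2 fold change 0.08, edgeR adjusted p = 0.76). Its second identifier (ENSMUSG00000117098), a model that overlaps Myl12a and Myl12b on the same strand, had 0 reads in every library, which allows up to 0.0970 CPM in the largest and 0.269 CPM in the smallest, taking 3 reads as the limit and counting error alone. Of the 50-base windows of this model, 93.9% occur in other genes, as do 29.6% of those of Myl12a, so the split of reads among these genes is uncertain.

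Flnc, the filamin of muscle and of cells under strain, which cross-links actin filaments, fell. Flnc (chr6:29433256-29461883) was at 4.54, 7.61 and 8.58 CPM in control libraries and at 2.64, 3.44 and 5.81 CPM in *Neuid* KD libraries. The groups overlapped, and the log2 fold change was -0.91 (standard error 0.197, edgeR adjusted p = 0.0055), on 63 to 187 reads per library. Its median was 7.23 CPM in the libraries of higher background and 3.18 CPM in the others. Among the 7 libraries of higher background, the 4 control libraries were at 7.23 to 8.58 CPM and the 3 *Neuid* KD libraries at 3.69 to 5.81 CPM. Among the other 5, the 2 control libraries were at 4.54 and 5.37 CPM and the 3 *Neuid* KD libraries at 2.64 to 3.18 CPM. The groups did not overlap on either side of the split, and the log2 fold change was -0.81 (edgeR adjusted p = 9.2e-04) above it and -0.78 (edgeR adjusted p = 0.013) below it. Below it, with 2 control and 3 *Neuid* KD libraries, members that were not called, such as Actb and Zyx, were apart too.

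**Figure D4:**
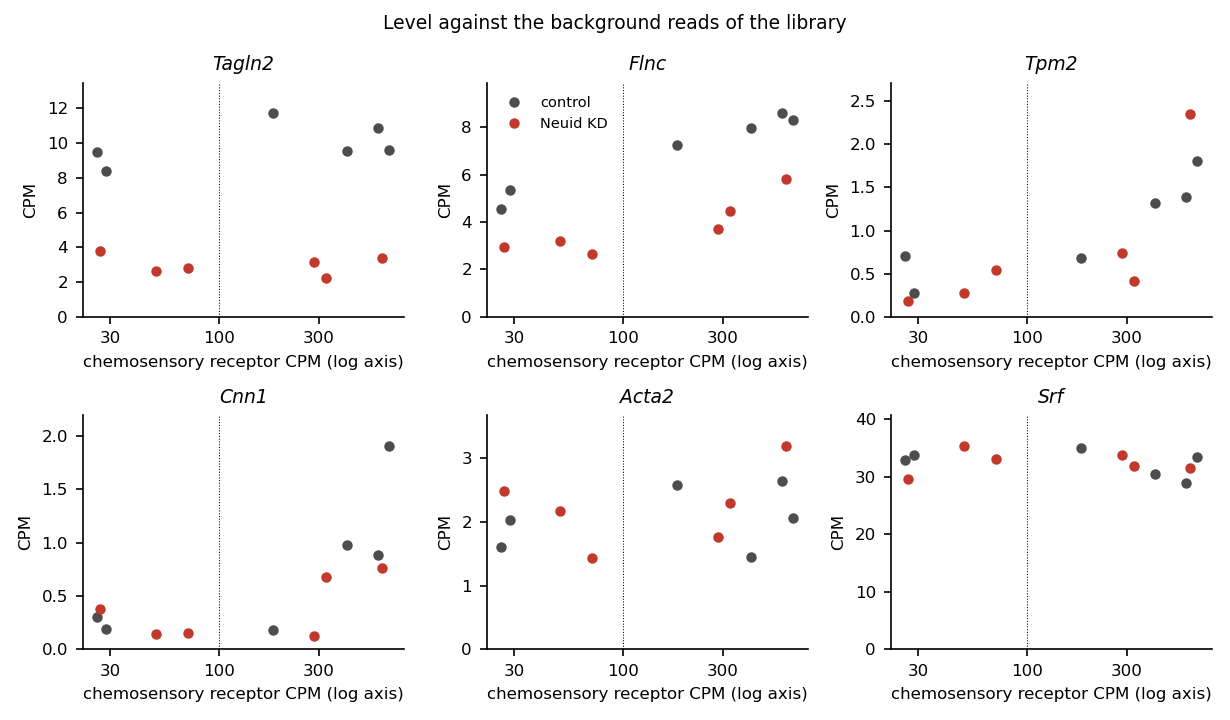
CPM of 6 members (vertical axes, from 0) against the background reads of each library, given as the CPM on chemosensory receptor genes (log axis; dotted line at 100). Flnc and Tpm2 are higher where the background is high, the *Neuid* KD libraries lie below control libraries of like background for Tagln2 and Flnc, and Srf stays between 28.9 and 35.4 CPM throughout.

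Flna, the main filamin, was at 121, 129.9 and 142 CPM in control and at 88.2, 116 and 122 CPM in *Neuid* KD libraries. The groups overlapped only at 121 to 122 CPM, and the log2 fold change was -0.21 (standard error 0.0682, edgeR adjusted p = 0.079). Flna was called lower under 12 alternatives, among them when *Neuid* KD replicate 1 (-0.19, adjusted p = 0.0052) or 5 (-0.26, adjusted p = 0.028) was left out, with the size factors of DESeq2 (-0.22, adjusted p = 0.043) and with the background as a covariate (-0.21, adjusted p = 0.0024). It kept a negative sign under every alternative tried, from -0.27 to -0.18. The alpha-actinins, which cross-link antiparallel filaments, were not called, with log2 fold changes of -0.11 for Actn1 (edgeR adjusted p = 0.38) and 0.05 for Actn4 (edgeR adjusted p = 0.75).

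Among the focal adhesion proteins, Tln1 rose and the others were not called. Tln1 encodes talin 1, which activates integrins and links them to actin. It was at 35.2, 36.3 and 37.2 CPM in control and at 39.7, 43.9 and 44.9 CPM in *Neuid* KD libraries, without overlap of the groups, and its log2 fold change was 0.26 (standard error 0.0434, edgeR adjusted p = 6.7e-04). Tln1 overlaps Creb3 on the opposite strand. It was not called under offsets for GC content and length (0.23, adjusted p = 0.53) or within the 7 libraries of higher background (0.27, adjusted p = 0.12). Talin 2, encoded by Tln2 and the more abundant form per kilobase in these cultures, was at 199, 223 and 236 CPM in control and at 197, 256 and 272 CPM in *Neuid* KD libraries (log2 fold change 0.18, standard error 0.0695, edgeR adjusted p = 0.16). Its lowest value was that of *Neuid* KD replicate 1, without which Tln2 was called higher (0.19, adjusted p = 0.0093), as it was under 5 other alternatives (0.15 to 0.17, adjusted p = 0.0030 to 0.049). Vcl, encoding vinculin, had a log2 change of 0.02 (edgeR adjusted p = 0.90), Zyx, encoding zyxin, one of -0.10 (edgeR adjusted p = 0.68) and Pdlim7, a LIM domain adaptor, one of -0.04 (edgeR adjusted p = 0.87).

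Of the ERM proteins, which tie cortical actin to membrane proteins, Ezr rose. Ezr, encoding ezrin, was at 60.7, 70.1 and 82.5 CPM in control and at 84.6, 90.0 and 101 CPM in *Neuid* KD libraries. All *Neuid* KD libraries lay above all control libraries, and the log2 fold change was 0.37 (standard error 0.0674, edgeR adjusted p = 0.0014). It was 0.44 within the libraries of higher background and 0.22 within the others, and under offsets for GC content and length it was 0.42 without a call (adjusted p = 0.71). Rdx, encoding radixin, was at 128, 138 and 156 CPM in control and at 142, 162 and 171 CPM in *Neuid* KD libraries (log2 fold change 0.18, standard error 0.0594, edgeR adjusted p = 0.085), and was called higher under 7 alternatives (0.16 to 0.21, adjusted p = 0.0085 to 0.043), of which 1 left out a library, control replicate 3. Msn, encoding moesin, had a log2 change of 0.04 (edgeR adjusted p = 0.81). Per kilobase, Rdx held 51.0% ± 0.880 of the ERM level in control and 48.9% ± 1.09 in *Neuid* KD libraries, and Ezr 36.3% ± 0.921 and 39.9% ± 1.04 (SD, n = 6 each). Sytl3 overlaps Ezr on the opposite strand.

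The actin turnover factors were not called. Cfl1, encoding cofilin 1, which severs filaments, was at 281 to 318 CPM in control and 298 to 318 CPM in *Neuid* KD libraries (log2 fold change 0.04, edgeR adjusted p = 0.75). Pfn1, encoding profilin 1, which feeds monomers to growing ends, was at 65.2, 70.7 and 72.5 CPM and at 68.6, 76.0 and 79.8 CPM (log2 fold change 0.12, standard error 0.0493, edgeR adjusted p = 0.19).

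Ordered by level per kilobase of exon in control libraries (RPKM, SD over n = 6), Actb led with 673 ± 38.0, followed by Cfl1 with 106 ± 5.12, Tagln3 with 72.8 ± 4.36 and Myh10 with 54.7 ± 3.23. Rdx (30.1 ± 2.12) and Pfn1 (28.9 ± 1.36) came next and lay within each other's spread. Tpm1, Actn4 and Ezr followed at 22.9 ± 1.20, 21.8 ± 1.24 and 21.5 ± 2.25, with spreads that overlapped. Tagln2 (4.77 ± 0.567) was 24th of the 38 and lay within the spread of Cald1 (4.96 ± 0.548). The genes used as markers of contractile smooth muscle were at the low end, with Acta2 at 0.939 ± 0.222, Tagln at 0.390 ± 0.0975, Tpm2 at 0.354 ± 0.196 and Cnn1 at 0.270 ± 0.246.

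Beyond the members, 197 further genes of the actin pathway were taken from 7 lists, and 32 of the 194 tested rose while 9 fell (21.1% called, against the background of 8.72%). Their median log2 fold change was 0.03. The lists were also drawn up with results of these data known, and 6 of them are described below. Under offsets for GC content and length, 8 rose and 4 fell, and of the genes named below Lpp, Pdlim5, Pdlim4, Cobl, Gsn, Itgb5, Itgb8, Tns3, Cavin1, Myo10, Myo6 and Plec were among those still called. Over all tested genes, 396 rose and 103 fell under these offsets, against 1235 and 473 without them.

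Of the integrins and other focal adhesion proteins, 10 of 30 rose, 2 fell and 18 were not called (40.0% called, against 8.72% over all tested genes). The integrin beta chains Itgb5 (13.7 ± 1.78 to 32.1 ± 3.25 CPM, SD, n = 6 each; log2 fold change 1.22, edgeR adjusted p = 2.2e-08) and Itgb8 (24.5 ± 2.18 to 50.6 ± 1.79 CPM; 1.05, edgeR adjusted p = 6.7e-10) rose most, followed by Tns3, a tensin (0.50, edgeR adjusted p = 6.2e-05). The groups did not overlap for these 3 genes. The genes for the caveola proteins fell, with log2 fold changes of -0.84 for Cav1 (edgeR adjusted p = 1.0e-05) and -0.69 for Cavin1 (edgeR adjusted p = 0.014).

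Of the other myosins and spine actin-binding proteins, 3 of 27 rose and 2 fell (18.5% called, against 8.72% over all tested genes). The unconventional myosins Myo10, which moves cargo along filopodia (66.8 ± 4.13 to 149 ± 9.23 CPM, SD, n = 6 each; log2 fold change 1.16, edgeR adjusted p = 1.8e-10), and Myo6, which moves towards the minus end (44.1 ± 2.61 to 96.1 ± 5.80 CPM; 1.12, edgeR adjusted p = 1.8e-10), rose without overlap of the groups. Myo9a rose by 0.27 (edgeR adjusted p = 0.030), while Plec, encoding the cytolinker plectin, fell by 0.41 (edgeR adjusted p = 0.0015) and Myo1c fell by 0.21 (edgeR adjusted p = 0.014) on the log2 scale. The call of Myo9a was lost in 9 of the 12 fits that left out 1 library (adjusted p up to 0.18) and kept only without control replicate 3 or 5 or *Neuid* KD replicate 1. That of Myo1c was lost without *Neuid* KD replicate 4 (adjusted p = 0.059).

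Among the close relatives of the members, 4 of the 21 tested rose, where 6.31% of all tested genes did. Lpp, a relative of zyxin (log2 fold change 0.87, edgeR adjusted p = 2.3e-06), Pdlim5, a relative of Pdlim7 (0.70, edgeR adjusted p = 9.55e-07), and Ctnna1, a catenin related to vinculin (0.57, edgeR adjusted p = 1.4e-06), rose, while Zyx, Pdlim7 and Vcl themselves were not called. Pdlim4 fell (-0.77, edgeR adjusted p = 7.0e-04).

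Of the SRF cofactors and other SRF target genes, 3 of the 27 tested rose and 1 fell (14.8% called, against 8.72% over all tested genes). The immediate early genes Egr1 (log2 fold change 0.48, edgeR adjusted p = 2.0e-04) and Egr3 (0.28, edgeR adjusted p = 0.015) and the ternary complex factor Elk3 (0.42, edgeR adjusted p = 0.0015) rose, and Csrp1, a LIM protein bound to the actin cytoskeleton (-0.44, edgeR adjusted p = 8.2e-04), fell. Of the nucleators and elongation factors, 5 of 37 rose and 1 fell (16.2% called), with the formins Fmnl2 (0.44, edgeR adjusted p = 1.4e-04), Fmn2 (0.40, edgeR adjusted p = 0.0046) and Diaph2 (0.40, edgeR adjusted p = 0.028) higher and the nucleator Cobl lower (-0.59, edgeR adjusted p = 2.7e-04). Egr3 was not called without *Neuid* KD replicate 2, 4 or 6 (adjusted p up to 0.088). Diaph2 lost its call in 8 of the 12 fits that left out 1 library (adjusted p up to 0.15) and kept it without control replicate 1, 3 or 5 or *Neuid* KD replicate 1.

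Of the severing, capping and monomer-binding proteins, 3 of 29 rose and none fell (10.3% called, near the 8.72% over all tested genes). The 3 were Gsn, encoding gelsolin (5.69 ± 0.812 to 9.08 ± 1.19 CPM, SD, n = 6 each; log2 fold change 0.67, edgeR adjusted p = 5.1e-04), Twf1 (0.33, edgeR adjusted p = 0.0026) and Add3 (0.19, edgeR adjusted p = 0.028). The call of Add3 was lost in 10 of the 12 fits that left out 1 library (adjusted p up to 0.22) and kept only without control replicate 3 or *Neuid* KD replicate 1.

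**Figure D5:**
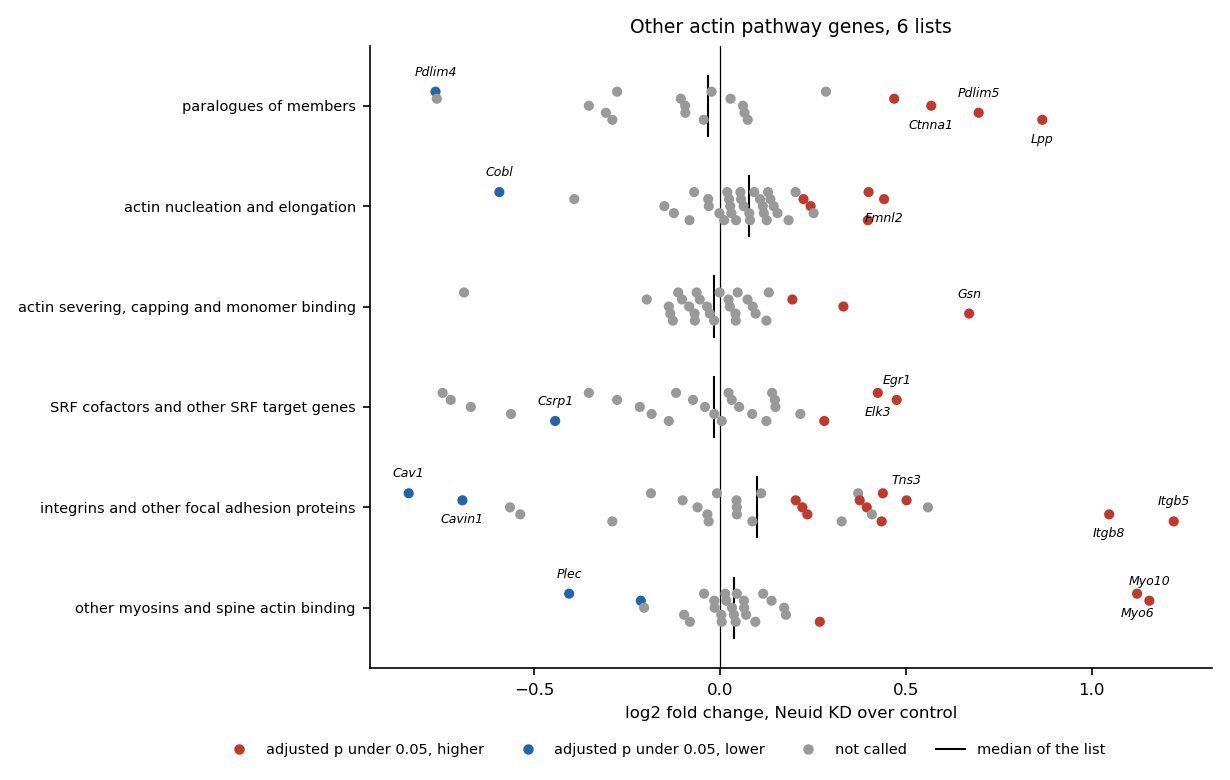
Log2 fold change (*Neuid* KD over control, horizontal axis) of the genes of 6 pathway lists, with called genes in colour and the median of the plotted genes of each list as a bar. Itgb5, Itgb8, Myo10 and Myo6 lie above 1.

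Other cells of the culture carry the same genes, so marker lists for 8 cell types were summed in each library and compared with a two-sided exact permutation test over all arrangements of the libraries. Neuronal markers summed to 7571 to 8924 CPM in control and 7675 to 9122 CPM in *Neuid* KD libraries (log2 difference 0.05, exact permutation p = 0.33, adjusted p = 0.38 over 8 lists), and 2 of 14 rose. Homeostatic astrocyte markers rose, from 1652 to 2119 CPM in control to 3293 to 3951 CPM in *Neuid* KD libraries (log2 difference 0.95, exact permutation p = 0.0022, adjusted p = 0.0058), with all 12 tested genes of 13 called higher. Reactive astrocyte markers summed to 925 to 1030 CPM in control and 834 to 860.2 CPM in *Neuid* KD libraries (log2 difference -0.19, exact permutation p = 0.0022, adjusted p = 0.0058). Of the 17 tested, 3 rose (Gfap, Nes and Osmr) and 3 fell (Vim, S1pr3 and Cp). Oligodendrocyte lineage markers were at 113 to 127 CPM and 257 to 304 CPM (log2 difference 1.23, exact permutation p = 0.0022, adjusted p = 0.0058), with Olig1 and Olig2 higher, Mbp lower and 6 of the 9 tested not called (median log2 fold change 0.09), while Mog was under 0.1 CPM in the median library of each group. The part of astrocytes and of the oligodendrocyte lineage in the members' changes was not tested. In bulk RNA, more cells of a type and more RNA of its genes per cell cannot be told apart.

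Markers of mural cells, fibroblasts, endothelial cells and microglia summed to less than those of neurons and astrocytes. Mural cell markers summed to 18.8 to 43.1 CPM in control and 28.0 to 52.8 CPM in *Neuid* KD libraries (log2 difference 0.40, exact permutation p = 0.14, adjusted p = 0.23), and 1 of the 9 tested rose, Notch3 (1.31), which is also expressed outside mural cells. Fibroblast and meningeal markers were at 122 to 165 CPM and 114 to 131 CPM (log2 difference -0.18, exact permutation p = 0.054, adjusted p = 0.11), with Col5a1 higher and Fn1 lower among the 12 tested. Endothelial markers were at 7.86 to 36.4 CPM and 7.58 to 31.2 CPM (log2 difference -0.34, exact permutation p = 0.48, adjusted p = 0.48) with none of 8 called, and Cldn5, the tight junction claudin that defines them, had a median of 0.0890 CPM in control and 0 in *Neuid* KD libraries. Microglial markers were at 6.60 to 14.7 CPM and 6.01 to 13.98 CPM (log2 difference -0.29, exact permutation p = 0.29, adjusted p = 0.38) with none of 4 called, and 9 of the 13 were under 1 CPM in every library. The summed endothelial and microglial markers were higher in all 7 libraries of higher background than in the other 5.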

How the data were processed

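RNA-seq libraries were prepared with a stranded low-input total RNA kit, and the authors deposited 1 table of raw read counts per gene, made with bcl2fastq, STAR and featureCounts on mm10. The strand setting and annotation release of the counting are not given in the sources used here. The 12 libraries were grouped by their labels. Genes were filtered with filterByExpr, scaled by TMM and tested with edgeR's quasi-likelihood test (edgeR 4.0.16, R 4.3.3) without covariates, with Benjamini-Hochberg adjustment over all 19578 tested genes and a threshold of 0.05. CPM, and RPKM over merged exon length, were computed from the counts. Marker sums were compared by exact permutation tests (SciPy 1.17.1). DESeq2 1.42.0, limma 3.58.1, other scalings and filters, background, GC and length corrections, a replicate block and leaving out each library were alternatives. The fit was tested on simulated data. All members are described, and of each pathway list up to 3 called genes rising most and up to 3 falling most are named. The members and lists were chosen with earlier results of these data known. Promoters came from RefSeq on GRCm38.p6. Results on 1 pathway list and 1 further gene are not reported here. The 95% intervals use a normal quantile, and a t quantile would make them wider. Their standard errors were derived from the fold change and the F statistic of the fit, which holds the spread between libraries. The limit for a count of 0 covers counting error only.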

Additional observations from a re-analysis of the deposited data

Results flagged for a closer look

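In 5 of 92 groups of 6 libraries, 1 library lay far from the other 5, and chance alone gives about 1 in 20 such groups. *Neuid* KD replicate 1 was set apart in 4 of the 5. In it Tpm2 was at 2.36 CPM, with the nearest *Neuid* KD library at 0.738 and the farthest at 0.187 CPM. Flna was at 88.2 CPM there, with the others at 112 to 122 CPM. Tln2 was at 197 CPM, with the others at 247 to 272 CPM, and the neuronal markers summed to 7675 CPM, with the others at 8603 to 9122 CPM. The background reads of this library were at 604 CPM, the highest of the *Neuid* KD group, and their part in these values was not tested. In *Neuid* KD replicate 2, Tln1 was at 39.7 CPM, with the others at 43.2 to 44.9 CPM, still above all control libraries.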

How the results depend on the processing

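Tagln2 and Flnc were called lower under every alternative tried, with log2 fold changes of -1.84 to -1.58 and -1.09 to -0.78, and all 6 called members stayed called when any single library was left out. Offsets for GC content and length left 0 members higher, and ended the calls of Ezr, Tln1, Cnn3 and Cald1. Over all genes, the offsets left 396 higher and 103 lower, against 1235 and 473 without them. With them the log2 fold changes were 0.42 (Ezr), 0.23 (Tln1), 0.34 (Cnn3) and -0.29 (Cald1). Their standard errors were 0.208, 0.102, 0.213 and 0.106 in that order, against 0.0674, 0.0434, 0.0537 and 0.0730 in the main fit. The cause was not tested. The count of higher members, 3, was 6 with a filter of at least 1 CPM in 6 libraries, 5 in the DESeq2 Wald test, 6 with 1 RUVs factor, 6 with the background as a covariate, 1 within the 7 libraries of higher background and 0 with a log2 fold change beyond 0.5 asked for. Without single libraries it was 3 to 5, the highest without control replicate 3. The count of lower members, also 3, was 6 with upper-quartile scaling, 6 with library size alone, 6 in the DESeq2 Wald test and 5 within the 5 libraries of lower background, and 3 to 4 without single libraries. Of the pathway genes, 32 higher became 19 without a filter, 18 within the libraries of higher background, 8 with the offsets and 9 with the fold threshold, and 19 to 37 without single libraries (19 without *Neuid* KD replicate 2, 21 without control replicate 2 and 21 without *Neuid* KD replicate 4). The 9 lower became 22 with upper-quartile scaling, 21 with library size alone, 14 in the DESeq2 Wald test, 15 within the libraries of lower background, 4 with the offsets and 4 with the fold threshold, and 8 to 13 without single libraries. Over all genes, 1235 higher and 473 lower became 1049 and 1259 with upper-quartile scaling, 1080 and 1260 with library size alone and 1496 and 1004 in the DESeq2 Wald test. With 1 RUVs factor they were 1757 and 988, with the background as a covariate 1775 and 987, with the fold threshold 477 and 155. Within the libraries of higher background they were 651 and 205 of 23644 tested, within the others 1110 and 799 of 17665. At 1 CPM in 6 libraries they were 1495 and 802 of 15086, and without a filter 711 and 229 of 48419. They were 822 and 355 without *Neuid* KD replicate 2, 848 and 360 without 4, and 864 and 368 without control replicate 2. Without the filter the median log2 fold change was -0.14 over 48419 genes, against -0.03 over the 19578 of the main fit, a different set of genes.

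Same-numbered libraries did not deviate together (correlations of -0.64 to 0.77, own number highest for replicate 3 alone), so the numbers were not taken as pairs. With the replicate block, 6 members were higher and 4 lower, and 1299 and 542 of all genes. In a sign-flip test over the 6 pairs, the summed markers of homeostatic astrocytes (0.95), reactive astrocytes (-0.19) and the oligodendrocyte lineage (1.23) had an adjusted exact p of 0.083, the smallest 6 pairs allow for 3 of 8 lists. In the same order their differences were 0.94, -0.19 and 1.30 within the libraries of higher background (adjusted exact permutation p = 0.076, again the smallest for 3 of 8 lists) and 0.90, -0.21 and 1.14 within the others (adjusted exact permutation p = 0.13). The smallest unadjusted p of the last split is 0.10, and these 3 tests say nothing about stability. With the background as a covariate, mural markers differed by 0.46 (adjusted permutation p = 0.013) and fibroblast markers by -0.16 (adjusted permutation p = 0.038). The mural list had Notch3 as its highest gene and a median log2 fold change of -0.21 in the main fit. Fibroblast markers were at -0.21 to -0.13 without single libraries, past the threshold without control replicate 5 or 6 (adjusted exact permutation p = 0.043 for each). Neuronal markers turned to -0.0049 with upper-quartile scaling and -0.0016 with library size alone, and endothelial markers to 0.048 within the libraries of lower background.

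Members near 0 changed sign without being called. With the size factors of DESeq2 these were Actb -0.0019, Tagln3 -0.012, Tpm1 -0.010, Myl6 -0.012 and Srf -0.0092. With upper-quartile scaling these were Actb -0.042, Tagln3 -0.054, Tpm1 -0.052, Myl6 -0.055, Actn4 -0.013, Vcl -0.038, Msn -0.017, Cfl1 -0.017, Srf -0.051 and Lmna -0.034. With scaling by library size alone these were Actb -0.038, Tagln3 -0.051, Tpm1 -0.049, Myl6 -0.052, Actn4 -0.0099, Vcl -0.036, Msn -0.014, Cfl1 -0.014, Srf -0.049 and Lmna -0.030. In the DESeq2 Wald test these were Actb -0.0018, Tagln3 -0.014, Tpm1 -0.0099, Myl6 -0.013 and Srf -0.0081. Within the 5 libraries of lower background these were Actb -0.061, Actg1 -0.012, Tagln3 -0.032, Tpm1 -0.016, Myh9 -0.020, Myl6 -0.083, Msn -0.041, Cfl1 -0.023, Srf -0.051 and Lmna -0.11. With reads thinned to the smallest library these were Actb -0.0020, Tagln3 -0.019, Tpm1 -0.017, Myl6 -0.011, Msn -0.027, Srf -0.029 and Lmna -0.030. With a filter of at least 1 CPM in 6 libraries these were Tagln3 -0.0088, Tpm1 -0.0068, Myl6 -0.0097 and Srf -0.0056. With 1 RUVs factor these were Tpm1 -0.0049 and Myl6 -0.0057. With the background as a covariate these were Tpm1 -0.0023 and Myl6 -0.0036. Within the 7 libraries of higher background these were Tpm1 -0.018, Myl12a 0.11, Myl12b -0.041 and Vcl -0.0085. Without single libraries the signs of 10 members turned: Acta2 from -0.061 to 0.19, Actb from -0.022 to 0.035, Cfl1 from -0.00065 to 0.062, Lmna from -0.030 to 0.062, Myl6 from -0.050 to 0.037, Pdlim7 from -0.13 to 0.00095, Srf from -0.034 to 0.026, Tagln3 from -0.052 to 0.025, Tpm1 from -0.024 to 0.026 and Vcl from -0.020 to 0.050. Members under 5 CPM rest on few reads, and their standard errors limit what could be seen.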
